A study of Mus musculus with 38 samples.

Results

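The genes described here are 40 mouse genes of amino acid uptake, tRNA charging, and serine and folate metabolism, together with ATF4 and its best known targets. The rule is a list of gene symbols by function and uses no measured value, but the list was drawn up with earlier results of these data known. Of the 40, 37 had a probe set annotated to that gene alone, out of 23410 named probe sets on the array. Aars, Mars and Pycr1 had none and were not analysed here. Of the 37 measured genes, 36 reached a mean of at least 7 (log2 signal, taken as the edge of background) in a group of arrays, and Aldh1l2 stayed below it everywhere, at 5.35 to 6.02 in the 10 group means.

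Messenger RNA of 5 mouse CD8 T cell clones was measured on 38 arrays. Each clone was taken after 14 h on plates coated with an anti-CD3 antibody (0.5 ug/ml), called activated, and in a state labelled dormant. Below, at rest and resting mean dormant, and do not say that the cells had stopped dividing. The median of 23 measured cell cycle genes averaged 10.32 in dormant and 8.83 in activated CD8bm1. It was also higher in dormant 8uvmo-2 (9.73 and 8.43), 8uvmo-3 (9.27 and 8.21) and sAg3 (8.72 and 8.255), and lower in dormant sAg1 (7.71 and 8.57). The clones sAg1 and sAg3 carry the phenotype CD8IL13+, which the design also names CD8γ13. The clones 8uvmo-2 and 8uvmo-3 carry the phenotype CD8IL13-, named Tc1 there, and CD8bm1 is an alloreactive conventional CD8 clone. Activated groups held 4 arrays each, and dormant groups held 3 for sAg1, 3 for sAg3 and 4 for each of the other clones. All groups were clones grown in RPMI medium with serum. Each phenotype therefore rests on 2 clones, and the alloreactive one on a single clone. The labels do not say whether the arrays of a group came from separate cultures, so every p-value measures only how much these arrays scatter, and that scatter may be technical. In RNA from bulk cultures, fewer cells of a kind and less RNA per cell cannot be told apart.

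ATF4 is a transcription factor whose protein is made when the translation factor eIF2 is phosphorylated, as on amino acid shortage or endoplasmic reticulum stress, and also downstream of the growth kinase complex mTORC1. It pairs with C/EBP proteins on short promoter elements and switches on amino acid transporters, aminoacyl-tRNA synthetases, asparagine synthetase, and the enzymes that make serine and pass its carbon to folate in mitochondria. T cells that leave rest are known to raise amino acid import through Slc7a5, Slc3a2 and Slc1a5 and to depend on the serine and folate route for nucleotide synthesis. Ddit3, Trib3 and Chac1 are targets linked to strong stress rather than to growth.

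The core of the C/EBP-ATF element, TGATGNAA, was looked for on both strands in RefSeq promoter windows (GRCm38.p6) of 250 bases before to 50 bases after each gene's start. It occurred in 9 of 31 listed genes with a window (29.0%), against 1219 of 27025 genes in the table (4.51%). The list was made to hold known ATF4 targets, so its higher share may follow from that choice and is a description with no test. These 9 were Asns, Chac1, Gars, Got1, Iars, Slc1a4, Tars, Trib3 and Yars. The windows of 4 genes that were higher in dormant IL13+ than in dormant IL13-negative clones are shown, with the match in capitals. They lie at chr6:7693160-7693459 (minus strand) for Asns, chr2:119350992-119351291 (plus strand) for Chac1, chr11:20332664-20332963 (minus strand) for Slc1a4 and chr19:43524556-43524855 (minus strand) for Got1.
Asns: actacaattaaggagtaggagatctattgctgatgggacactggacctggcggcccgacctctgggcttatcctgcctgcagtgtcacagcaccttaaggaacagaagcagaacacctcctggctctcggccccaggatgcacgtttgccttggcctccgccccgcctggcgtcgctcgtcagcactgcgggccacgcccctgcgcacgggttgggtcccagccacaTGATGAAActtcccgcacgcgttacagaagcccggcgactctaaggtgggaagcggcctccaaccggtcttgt
Chac1: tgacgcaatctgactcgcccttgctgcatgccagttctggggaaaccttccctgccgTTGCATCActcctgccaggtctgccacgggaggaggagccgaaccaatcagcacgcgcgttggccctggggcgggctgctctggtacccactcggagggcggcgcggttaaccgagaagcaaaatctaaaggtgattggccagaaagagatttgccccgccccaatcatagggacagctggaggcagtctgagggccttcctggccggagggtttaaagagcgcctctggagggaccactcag
Slc1a4: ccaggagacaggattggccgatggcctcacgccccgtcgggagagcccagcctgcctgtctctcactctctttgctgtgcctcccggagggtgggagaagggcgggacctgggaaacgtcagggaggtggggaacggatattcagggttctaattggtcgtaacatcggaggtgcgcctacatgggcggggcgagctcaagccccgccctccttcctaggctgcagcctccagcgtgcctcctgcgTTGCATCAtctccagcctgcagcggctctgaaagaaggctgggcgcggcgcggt
Got1: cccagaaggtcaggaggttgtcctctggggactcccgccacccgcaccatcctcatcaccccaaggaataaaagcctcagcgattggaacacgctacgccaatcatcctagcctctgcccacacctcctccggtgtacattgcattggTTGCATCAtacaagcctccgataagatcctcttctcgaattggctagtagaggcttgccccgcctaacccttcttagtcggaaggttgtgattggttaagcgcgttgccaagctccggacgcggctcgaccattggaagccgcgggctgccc
The match began 23 bases before the start in Asns, where it read on the strand of the gene. It read on the other strand in Chac1, Slc1a4 and Got1, beginning 193, 4 and 102 bases before the start. The window of Mthfd2, also called higher in dormant IL13+ clones, held no match, which says only that these letters are not in this window. Slc7a5, called there too, had no window to search.

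Arrays of 1 group correlated at 0.9858 to 0.9981. Array medians were 7.01 to 7.09 in activated and 6.58 to 6.70 in dormant cells, and the median probe set rose by 0.35 (log2) on activation, by 0.51 among probe sets with a mean below 7 and by -0.04 among those above 9. Activation differences are therefore given as measured and, where stated, relative to the array medians. The array medians follow the dim probe sets, so differences relative to them may be too low for brighter genes. Of 9 T cell markers 8 were measured, and their median was 11.70 to 12.54 on every array, though Cd2 averaged 5.59 to 6.65 in sAg3 and CD8bm1. The 4 measured B cell markers were below 7 on every array. Of 14 macrophage and dendritic cell markers 8 to 12 were below 7 per array, but single markers were high in some groups. Lyz2 was at 9.26 in dormant sAg1 and at 4.95 to 6.34 elsewhere, and Itgam at 9.99 in dormant 8uvmo-2, 7.57 in dormant 8uvmo-3 and 5.24 to 6.46 elsewhere. Itgax ran from 5.35 to 11.37 and Cd68 from 7.81 to 10.33 over the 10 groups. The part of these markers in the results was not tested. Dormant 8uvmo-2 held 2 kinds of arrays. The median of 23 measured cell cycle genes was 10.84 and 10.92 on arrays 1 and 3, against 8.87 and 8.30 on arrays 2 and 4, and results that use this group are given without either kind where that matters.

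In the mean of the 5 clones Phgdh, Shmt1, Shmt2 and Mthfd1 of serine and folate metabolism rose after 14 h on anti-CD3. So did the carriers Slc1a5 and Slc7a1, while the stress targets Ddit3 and Trib3 did not pass the test. Chac1, also a stress target, was higher in that mean but by less than 2-fold. Chac1 rose most in 8uvmo-2 (8.50, against 7.205 at rest) and 8uvmo-3 (8.25, against 7.13), and fell in sAg3 (8.73, against 9.41). A gene was called when its difference passed a Benjamini-Hochberg adjusted p of 0.05 in limma and was at least 1 on the log2 scale (2-fold), in the same direction in all 5 clones. By this rule 6 of 37 genes were higher and 0 lower, where 4.56% of all named probe sets were higher and 1.64% lower. Relative to the array medians the same 6 genes had differences of 0.61 to 0.88, all past the adjusted p, and none was called, whereas 6 were called after quantile normalization. At the adjusted p alone, with neither the minimum on size nor the condition on the clones, 32 of 37 were higher and 1 lower, where 68.4% of all probe sets were higher and 22% lower, so this share is read only as a count. Without sAg3 the count was 13, in an alternative added after the data were seen, with Atf4, Asns, Slc1a4, Slc7a5, Iars, Wars and Got1 joining. The median difference of the 37 genes was 0.61, against 0.35 over all probe sets tested. Marker lists of other cell types had medians of 0.89 (4 B cell genes, all below 7 on every array) and 0.57 (9 stromal and epithelial genes). The median difference depended on brightness, at 0.51 over probe sets with a mean below 7 and -0.04 over those above 9. Of the 37 genes 25 had a mean of at least 9, so neither these lists nor all probe sets match them in brightness.

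Among the enzymes that draw carbon from serine, Shmt1, the cytosolic serine hydroxymethyltransferase, ran from 7.67 through a median of 8.33 to 9.16 on the 20 activated arrays and from 6.29 through 6.87 to 8.68 on the 18 dormant arrays. Its mean difference of 1.28 ± 0.11 (SE; 0.88 relative to the array medians) was the largest of the 37, although the 2 states overlapped. The dormant Shmt1 means of sAg1, sAg3, 8uvmo-2 and 8uvmo-3 were 6.68 to 6.96, near background, so the size of the difference is uncertain. Shmt2, the mitochondrial form, ran from 10.26 through 10.97 to 11.62 in activated cells and from 8.50 through 9.57 to 11.49 in dormant cells, a difference of 1.26 ± 0.091. Phgdh, which opens serine synthesis from glucose, differed by 1.24 ± 0.084, and Mthfd1, the trifunctional folate enzyme of the cytosol, by 1.26 ± 0.10. These 4 sit on the route from glucose through serine to the folate pool. Psat1, the next enzyme after Phgdh, averaged 0.93 ± 0.10 higher with a value of -0.08 in CD8bm1, and was not called, and Psph, the last step of serine synthesis, averaged 0.23 ± 0.055 higher. Mthfd2, the mitochondrial folate dehydrogenase, averaged 0.72 ± 0.062 higher and Mthfd1l, which releases formate, 0.04 ± 0.062.

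Of the transporters, Slc1a5 and Slc7a1 were called. Slc1a5, a carrier of glutamine and other neutral amino acids, ran from 10.88 through 11.49 to 11.77 on activated and from 10.00 through 10.41 to 10.93 on dormant arrays, a difference of 1.01 ± 0.048 (adjusted p = 7.13e-20). It sits at the size threshold and was lost with array weights or without sAg1, 8uvmo-2 or 8uvmo-3. Slc7a1, the arginine and lysine carrier, differed by 1.23 ± 0.086. Slc38a1, another glutamine carrier, was the only listed gene whose 20 activated arrays all lay above its 18 dormant ones (11.28 to 12.03 and 10.45 to 11.22), where 27.2% of all probe sets did so. Its difference was 0.77 ± 0.041, and a second probe set of the gene gave 0.10 ± 0.076, so the gene's change depends on the probe set. Slc7a5, the large neutral amino acid carrier, averaged 0.82 ± 0.087 higher and its partner chain Slc3a2 0.38 ± 0.039, without one direction in all clones.

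Among the regulators and stress targets none was called. Atf4 itself ran from 9.94 through 10.23 to 10.63 on activated arrays and from 8.89 through 9.23 to 10.11 on dormant arrays, and averaged 0.84 ± 0.037 higher. Ddit3, the stress factor also called CHOP, differed by -0.12 ± 0.063 (adjusted p = 0.0768), Trib3, a pseudokinase that restrains ATF4, by 0.11 ± 0.079 (adjusted p = 0.179), and Chac1, which degrades glutathione, by 0.54 ± 0.067. The Ddit3 mean joined clones of opposite direction. Activated and dormant Ddit3 averaged 8.98 and 8.40 in 8uvmo-2 and 8.92 and 8.755 in 8uvmo-3. They averaged 8.19 and 8.92 in sAg1, 8.49 and 8.94 in sAg3 and 8.78 and 8.94 in CD8bm1. Cebpg, a dimer partner of ATF4, differed by 0.04 ± 0.035. Among the 7 aminoacyl-tRNA synthetases measured, which load amino acids on tRNA, none was called. Wars (0.94 ± 0.038), Iars (0.91 ± 0.044) and Tars (0.77 ± 0.038) had the largest differences and Sars (-0.15 ± 0.037) the lowest. A second probe set of Iars gave 0.48 ± 0.040, so the size of its difference depends on the probe set.

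The means hide clones that behaved differently. In 8uvmo-2 19 of 37 genes were called higher on activation and in 8uvmo-3 16, in sAg1 9, in sAg3 1 and in CD8bm1 0, and none was called lower in any clone. Over all probe sets the shares called higher were 7% in 8uvmo-2, 6.2% in 8uvmo-3, 7.22% in sAg1, 4.08% in sAg3 and 4.58% in CD8bm1, with 4.87%, 3.86%, 3.62%, 0.94% and 2.67% called lower. Relative to the array medians, the counts were 9, 12, 5, 0 and 0 higher, with 1 gene lower in sAg1 (Ddit3, -1.14) and 3 lower in sAg3 (Chac1, -1.10, Mthfd1l, -1.05, and Trib3, -1.03). The median of probe sets with a mean below 7 rose by 0.50 in sAg1 and 0.52 in sAg3. That of probe sets above 9 changed by -0.01 and -0.07, so centring may overstate these falls and understate the rises. The median difference over the 37 genes was 1.02 in 8uvmo-2, 0.89 in 8uvmo-3, 0.75 in sAg1, 0.31 in CD8bm1 and 0.11 in sAg3, against 0.33 to 0.38 over all probe sets. Over probe sets with a mean above 9 it was -0.07 to -0.01, and 25 of the 37 genes had a mean of at least 9.

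**Figure D1:**
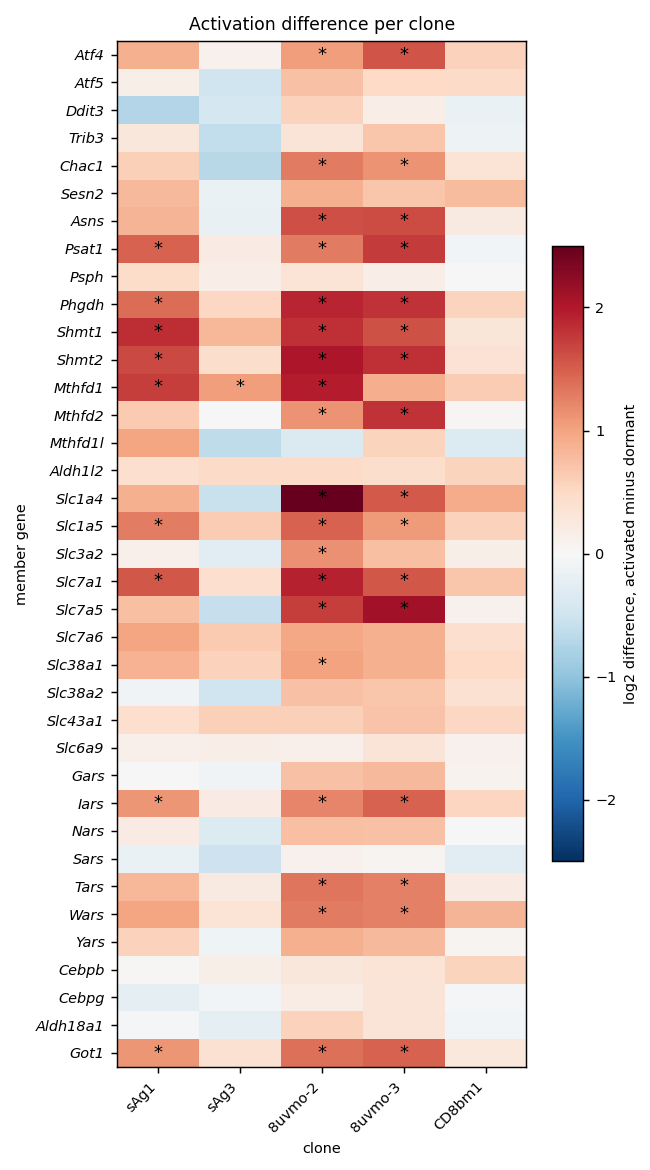
Log2 difference, activated minus dormant, of the 37 measured genes (rows) in each of the 5 clones (columns), as measured and not relative to array medians; an asterisk marks a called gene. The columns of 8uvmo-2 and 8uvmo-3 hold 19 and 16 asterisks, that of sAg3 holds 1 (Mthfd1) and that of CD8bm1 none.

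In the IL13-negative clones 16 of the 37 genes were called higher in both, among them 3 of the 7 synthetases. The share of all probe sets called higher in both was not computed, but it cannot exceed the 6.2% called in 8uvmo-3. Of the genes not called in both, Mthfd1l was lower in activated 8uvmo-2 (-0.37, adjusted p = 0.013) and higher in activated 8uvmo-3 (0.56). Slc7a5 read 11.94, 12.01, 12.26 and 11.99 in activated 8uvmo-2, against 10.73, 9.68, 11.06 and 9.80 in dormant 8uvmo-2. In 8uvmo-3 it read 11.70, 12.08, 11.70 and 12.11 after activation, against 9.91, 9.74, 9.69 and 9.83 at rest. All activated arrays lay above all dormant ones in both clones, as they did in 56.6% (8uvmo-2) and 59.3% (8uvmo-3) of all probe sets. The differences were 1.73 ± 0.19 (adjusted p = 6.31e-10) and 2.10 ± 0.19 (adjusted p = 9.03e-12). Slc1a4, a carrier of serine, alanine and cysteine, read 8.64, 8.73, 8.49 and 8.57 in activated 8uvmo-2, against 6.13, 5.81, 6.48 and 6.0 in dormant 8uvmo-2, which is below 7. Its difference of 2.50 ± 0.16 was the largest of any clone. The dormant values are near background, and probe sets with a mean below 7 rose by a median of 0.53 on activation in 8uvmo-2. The difference may therefore be understated or overstated. In 8uvmo-3 Slc1a4 read 6.95, 7.17, 7.12 and 7.31 after activation, against 5.48, 5.80, 5.63 and 5.54 at rest.

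Asns, which makes asparagine from aspartate and glutamine, read 12.04, 11.89, 12.01 and 11.92 in activated 8uvmo-2, against 10.28, 10.25, 10.60 and 10.27 in dormant 8uvmo-2. In 8uvmo-3 it read 11.76, 12.02, 11.76 and 12.07 after activation, against 10.25, 10.22, 10.32 and 10.31 at rest. The 2 clones thus shared both a low resting level and a difference of like size (1.61 ± 0.11 and 1.63 ± 0.11). Atf4 read 10.21, 10.25, 10.11 and 10.12 in activated 8uvmo-2, against 8.89, 9.16, 9.20 and 9.23 in dormant 8uvmo-2, a difference of 1.05 ± 0.079. In 8uvmo-3 it read 10.47, 10.63, 10.44 and 10.63 after activation, against 8.95, 8.95, 8.97 and 9.02 at rest, a difference of 1.57 ± 0.079. Atf4 was called in these 2 clones and in no other, and in 8uvmo-2 the call was lost without dormant arrays 1 and 3 (0.98).

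Called in both IL13-negative clones were also Chac1, Psat1, Phgdh, Shmt1, Shmt2, Mthfd2, Slc1a5, Slc7a1, Iars, Tars, Wars and Got1, the cytosolic aspartate aminotransferase. Iars is uncertain, because its second probe set gave 0.82 in 8uvmo-2 and 1.07 in 8uvmo-3, against 1.23 and 1.47 in the set used. Mthfd1, Slc3a2 and Slc38a1 were called in 8uvmo-2 only, with 0.91 ± 0.22, 0.76 ± 0.085 and 0.90 ± 0.088 in 8uvmo-3. Slc38a1 is uncertain too, because its second probe set gave 0.035 in 8uvmo-2 and 0.32 in 8uvmo-3, neither called. Mthfd2 had 10.50, 10.36, 10.52 and 10.32 in activated 8uvmo-2, against 9.57, 8.94, 9.70 and 8.97 in dormant 8uvmo-2. In 8uvmo-3 it had 10.39, 10.73, 10.45 and 10.87 after activation, against 8.96, 8.72, 8.64 and 8.87 at rest, a difference of 1.81 ± 0.14. Psat1 had 10.43, 9.92, 10.09 and 9.93 in activated 8uvmo-2, against 9.31, 8.26, 9.56 and 8.04 in dormant 8uvmo-2.

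Dormant 8uvmo-2 arrays with high cell cycle values were also the higher ones for several of these genes. Arrays 1 and 3 exceeded arrays 2 and 4 by 1.32 in Mthfd1, 1.29 in Psat1, 1.27 in Slc7a1 and 1.16 in Slc7a5, and by a median of 0.18 over the 37 genes against -0.05 over all probe sets. The part of cell cycle differences in the result was not tested. Without arrays 1 and 3, 18 of the 19 genes were still called in 8uvmo-2, Atf4 was not (0.98), and Sesn2 was added. Without arrays 2 and 4, 15 of the 19 were called, and Psat1, Mthfd2, Slc3a2 and Slc38a1 were not.

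**Figure D2:**
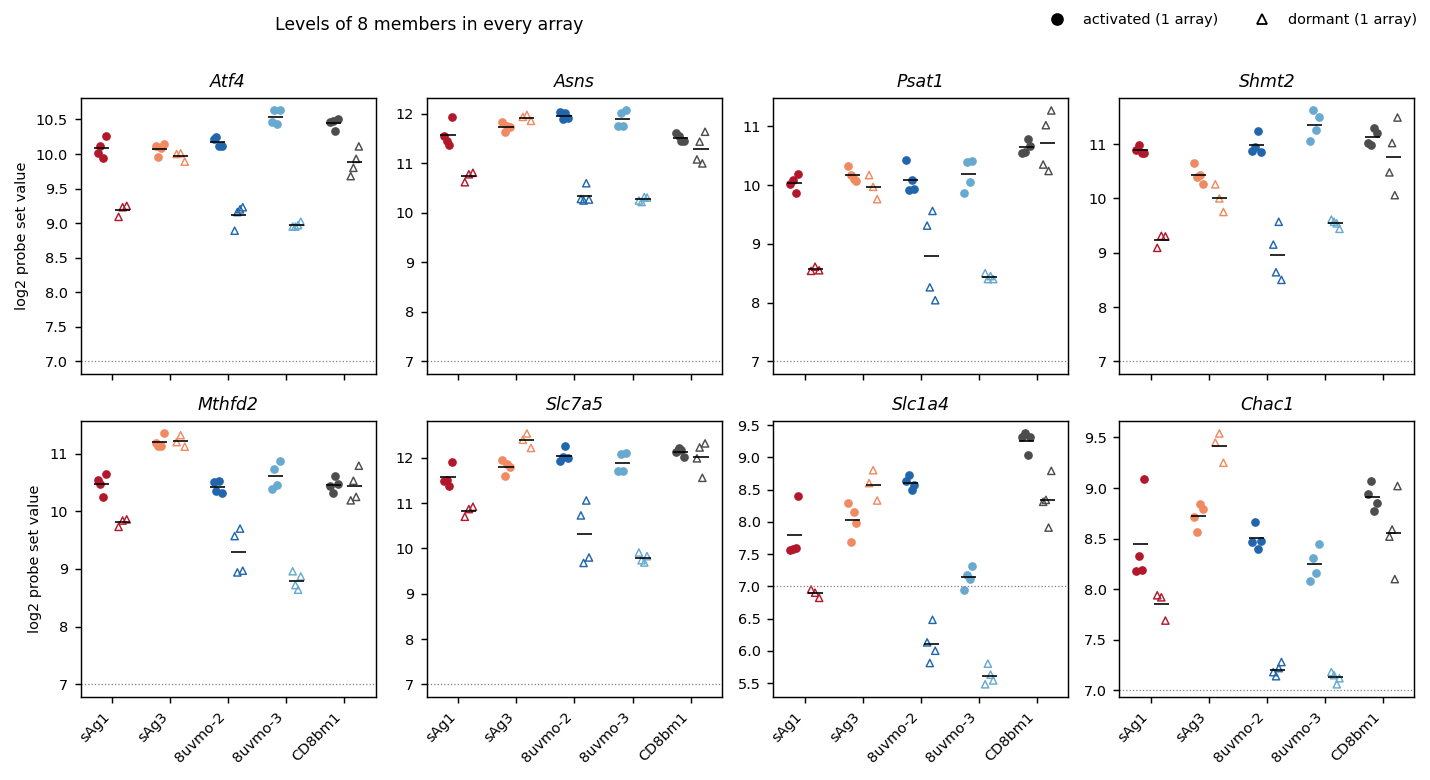
Log2 probe set values of 8 genes on every array, by clone, with filled circles for activated arrays, open triangles for dormant arrays and short lines for group means; the dotted line marks 7. Activated arrays of the 5 clones lie close together for Asns, Psat1 and Slc7a5, while dormant sAg3 and dormant CD8bm1 lie above the other dormant groups.

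In clone sAg1 the 9 called genes were 5 of serine and folate metabolism and Slc7a1, Slc1a5, Iars and Got1. Mthfd1 read 11.06, 11.12, 10.94 and 10.82 in activated sAg1, against 9.18, 9.37 and 9.20 in dormant sAg1, a difference of 1.74 ± 0.24. Shmt2 read 10.90, 10.99, 10.84 and 10.83, against 9.09, 9.31 and 9.30 at rest, a difference of 1.66 ± 0.21. Psat1 read 10.02, 10.08, 9.87 and 10.19, against 8.54, 8.61 and 8.55 at rest. In all of these the activated arrays stood clear of the dormant ones by more than 1 unit. By any margin, 61.2% of all probe sets had all activated above all dormant arrays in sAg1. Shmt1 (1.85 ± 0.27), Phgdh (1.40 ± 0.20), Slc7a1 (1.55 ± 0.20), Slc1a5 (1.29 ± 0.11), Iars (1.11 ± 0.10) and Got1 (1.09 ± 0.10) were the others called. The second probe set of Iars gave 0.61 in sAg1 and was not called. Ddit3 fell by 0.73 on the log2 scale (adjusted p = 4.61e-05) without reaching the size threshold, with 8.20, 8.16, 8.06 and 8.35 in activated and 8.90, 8.98 and 8.88 in dormant sAg1. Of the 23 cell cycle genes 9 rose and 0 fell in sAg1, while 0 rose in each of the other clones and 13 fell in 8uvmo-2, 5 in 8uvmo-3, 1 in sAg3 and 16 in CD8bm1. Their part in the activation results was not tested.

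In sAg3 and CD8bm1 little was called. In sAg3 Mthfd1 read 10.07, 10.03, 9.84 and 9.75 after activation, against 9.10, 8.78 and 8.74 at rest, a difference of 1.05 ± 0.24 (adjusted p = 1.93e-04) that was not called without dormant array 3. Chac1 read 8.71, 8.57, 8.84 and 8.79 in activated sAg3, against 9.45, 9.54 and 9.25 in dormant sAg3, below rest on every array, and fell by 0.69 (adjusted p = 2.31e-04). In sAg3 15.7% of all probe sets had all activated below all dormant arrays. Slc7a5 read 11.96, 11.59, 11.87 and 11.79, against 12.40, 12.54 and 12.22 at rest. At the adjusted p alone 11 genes were higher and 12 lower in sAg3, where 59% of all probe sets were higher and 14.1% lower. In CD8bm1 19 were higher and 2 lower, where 61.4% were higher and 18% lower. Probe sets with a mean below 7 rose by a median of 0.52 in sAg3 and 0.53 in CD8bm1, and those above 9 changed by -0.07 in each. Shares among probe sets of like brightness were not computed. In CD8bm1 the largest difference was that of Slc1a4 at 0.92 ± 0.16, and Slc7a5 read 12.12, 12.21, 12.18 and 12.02 in activated against 11.99, 12.23, 11.56 and 12.32 in dormant cells. Slc1a4 passed the threshold in CD8bm1 (1.07) when dormant array 4 was left out.

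At rest the clones fell in an order that many of the genes shared. In 26 of the 37 genes (70.3%) the dormant means of both sAg3 and CD8bm1 lay above those of the other 3 clones, against 19.7% of all named probe sets. This pair of clones was named after the data were seen, so the shares are a description with no test. The gap between the pair and the other 3 clones was widest for Slc1a4 (1.45), Slc7a5 (1.20) and Psat1 (1.17). CD8bm1 had the highest dormant mean in 15 genes and sAg3 in 14, while 8uvmo-3 had the lowest in 20 and 8uvmo-2 in 12. The median level of the 37 genes per array was 9.96 to 10.17 in dormant sAg3 and 9.93 to 10.41 in dormant CD8bm1, against 9.09 to 9.31 in dormant sAg1, 8.94 to 9.47 in dormant 8uvmo-2 and 8.95 to 9.02 in dormant 8uvmo-3. After activation it was 10.04 to 10.52 on all 20 arrays. The cell cycle list did not follow the same order. Its dormant medians averaged 10.32 in CD8bm1, 9.73 in 8uvmo-2, 9.27 in 8uvmo-3, 8.72 in sAg3 and 7.71 in sAg1, and within dormant CD8bm1 the arrays with the higher cell cycle medians (10.74 and 11.10, against 9.69 and 9.75) were also the higher ones in Psat1, Shmt1 and Shmt2. The part of the cell cycle genes in these levels was not tested.

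Between the phenotypes at rest, the transporters Slc1a4 and Slc7a5, the enzymes Asns, Mthfd2 and Got1 and the stress target Chac1 were higher in IL13+ than in IL13-negative clones. Called higher were 6 of 37 genes and lower 0, where 1.02% of all probe sets were called higher and 2.33% lower. A call here also needed both clone means of one phenotype beyond both of the other. Slc1a4 ran from 6.82 through a median of 7.64 to 8.80 on the 6 dormant IL13+ arrays and from 5.48 through 5.81 to 6.48 on the 8 dormant IL13-negative arrays. Its difference was 1.87 ± 0.12 (adjusted p = 8.57e-15), and with the lower side near background it may be understated. Slc7a5 ran from 10.70 through 11.57 to 12.54 in IL13+ and from 9.68 through 9.82 to 11.06 in IL13-negative cells, and overlapped only through dormant 8uvmo-2 array 3 and, narrowly, array 1.

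Chac1 ran from 7.69 through 8.60 to 9.54 in dormant IL13+ and from 7.06 through 7.17 to 7.28 in dormant IL13-negative cells, a difference of 1.47 ± 0.11 (adjusted p = 2.47e-13). Mthfd2 ran from 9.73 through 10.49 to 11.32 and from 8.64 through 8.95 to 9.70 in the same order, a difference of 1.47 ± 0.10 (adjusted p = 4.17e-14). Got1 ran from 9.83 through 10.32 to 10.87 in IL13+ and from 8.68 through 9.13 to 9.51 in IL13-negative cells, and Asns from 10.62 through 11.34 to 11.98 and from 10.22 through 10.28 to 10.60. In these 4 genes no array of one phenotype reached the range of the other, narrowly so in Mthfd2 (9.73 against 9.70) and Asns (10.62 against 10.60). The share of all probe sets without overlap here was not computed, so this only describes the 4 genes. The differences were 1.23 ± 0.074 for Got1, 1.02 ± 0.081 for Asns and 1.55 ± 0.14 for Slc7a5. At the adjusted p alone 27 genes were higher and 2 lower, where 19.4% of all probe sets were higher and 18% lower, and the median difference was 0.53, against 0.03 over all probe sets.

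These differences hold between arrays of these clones. Of the 23 cell cycle genes 14 were lower and 0 higher in dormant IL13+ than in dormant IL13-negative clones, and their part in the result was not tested. With the clone mean as the unit, 2 against 2, limma called 0 of the 37 genes and 3 of 23410 probe sets, and 6 of the 37 had an unadjusted p under 0.05. Asns (0.97) and Slc7a5 (1.26) were also not called when dormant 8uvmo-2 arrays 2 and 4 were left out.

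After activation none of the 37 genes was called between activated IL13+ and IL13-negative clones, where 0.666% of all probe sets were higher and 1.08% lower. At the adjusted p alone 5 were higher and 10 lower, where 15.4% of all probe sets were higher and 15.3% lower, and the median difference was -0.12. Got1 (0.54 ± 0.068) and Sesn2 (0.51 ± 0.11), a leucine sensor that restrains mTORC1, were the highest, and Ddit3 (-0.61 ± 0.097) and Tars (-0.58 ± 0.058) the lowest. Slc7a5 ran from 11.38 through 11.69 to 11.96 on the 8 activated IL13+ arrays and from 11.70 through 12.00 to 12.26 on the 8 activated IL13-negative arrays.

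**Figure D3:**
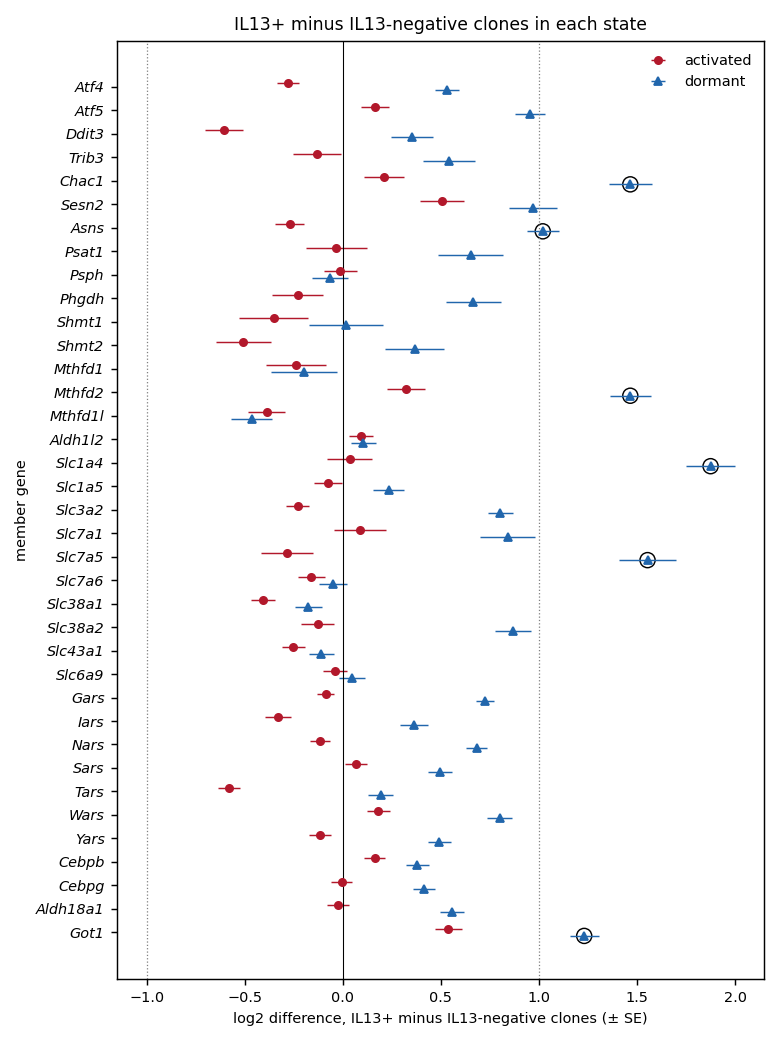
Log2 difference between IL13+ and IL13-negative clones (mean of 2 clones each, error bars show SE) for the 37 genes, with circles for activated and triangles for dormant cells; rings mark called genes and dotted lines mark a difference of 1. The 6 rings all belong to dormant cells, at 1.02 to 1.87, while the activated differences lie between -0.61 and 0.54.

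The difference between activation effects was itself tested. In 6 genes the effect was smaller in IL13+ than in IL13-negative clones, and in 0 it was larger, where 0.555% of all probe sets were lower and 1.39% higher. The genes were Slc1a4 (-1.84 ± 0.17), Slc7a5 (-1.84 ± 0.20), Asns (-1.29 ± 0.11), Chac1 (-1.25 ± 0.15), Mthfd2 (-1.14 ± 0.14) and Slc3a2 (-1.03 ± 0.088). All but Slc3a2 were also called between dormant cells, and the 2 comparisons share the dormant arrays. Without dormant 8uvmo-2 arrays 1 and 3 the count was 11, with Phgdh, Psat1, Shmt2, Slc7a1 and Slc38a2 added, and with clone means as the unit it was 0 in limma, with 12 genes at an unadjusted p under 0.05. The cell cycle list went the other way here: 13 of 23 genes had a larger effect in IL13+ clones, and its part in the result was not tested.

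The phenotype difference was not uniform within IL13+ clones, because several genes were lower in dormant sAg1 than in dormant sAg3. Called lower in dormant sAg1 were 9 of 37 genes and higher 0, where 3.79% of all probe sets were lower and 3.74% higher. Sesn2 read 8.87, 8.54 and 8.94 in dormant sAg1, against 10.54, 10.48 and 10.42 in dormant sAg3, a difference of -1.70 ± 0.19 (adjusted p = 2.13e-09). Slc1a4 read 6.95, 6.90 and 6.82 in dormant sAg1, against 8.60, 8.80 and 8.33 in dormant sAg3. Chac1 read 7.94, 7.92 and 7.69 in dormant sAg1 and 9.45, 9.54 and 9.25 in dormant sAg3, so the clones stood apart on every array. The share of all probe sets that did so was not computed. Slc7a5 (-1.56 ± 0.22), Mthfd2 (-1.40 ± 0.16), Psat1 (-1.40 ± 0.25), Mthfd1l (-1.29 ± 0.16), Asns (-1.19 ± 0.12) and Atf5 (-1.02 ± 0.12), a relative of ATF4, were the others. Of the 23 cell cycle genes 5 were lower in dormant sAg1 and 0 higher.

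After activation 1 gene was called between sAg1 and sAg3, where 2.6% of all probe sets were higher and 2.43% lower. This was Mthfd1, with 11.06, 11.12, 10.94 and 10.82 in activated sAg1, against 10.07, 10.03, 9.84 and 9.75 in activated sAg3 (1.06 ± 0.22, adjusted p = 1.59e-04). A test of the activation effect between these clones, added after the data were seen, called 9 genes with a larger effect in sAg1 and 0 with a smaller one, where 2.68% of all probe sets were larger and 2.51% smaller. Mthfd1l had the widest difference (1.63 ± 0.21), with 9.94, 10.05, 10.02 and 9.97 in activated and 8.97, 9.04 and 9.01 in dormant sAg1. In sAg3 Mthfd1l read 9.72, 9.73, 9.46 and 9.70 after activation, against 10.28, 10.40 and 10.20 at rest, so the clones moved in opposite directions. Slc1a4 (1.45 ± 0.25), Slc7a5 (1.33 ± 0.29), Chac1 (1.28 ± 0.22), Psat1 (1.27 ± 0.33), Shmt2 (1.22 ± 0.30), Slc7a1 (1.14 ± 0.28), Asns (1.03 ± 0.16) and Shmt1 (1.01 ± 0.38, adjusted p = 0.0478) were the others. Of the cell cycle list, 6 of 23 genes also had a larger effect in sAg1.

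Against the alloreactive clone CD8bm1, dormant IL13+ clones had lower Psat1, Trib3 and Shmt2, 3 of 37 genes, and 0 were higher, where 4.12% of all probe sets were lower and 3.14% higher. As a share of the 37, these 3 are not far above that background. Of the 23 cell cycle genes 18 were also lower, and their part was not tested. Psat1 ran from 8.54 through 9.19 to 10.17 on the 6 dormant IL13+ arrays and was 10.35, 11.02, 10.24 and 11.27 in dormant CD8bm1 (-1.45 ± 0.20, adjusted p = 1.55e-07). Trib3 ran from 7.28 through 7.98 to 8.51 and was 8.65, 9.10, 9.36 and 9.06 in dormant CD8bm1 (-1.14 ± 0.16, adjusted p = 1.72e-07). Shmt2 ran from 9.09 through 9.53 to 10.26 and was 10.48, 11.02, 10.06 and 11.49 in dormant CD8bm1 (-1.14 ± 0.18). Only Shmt2 overlapped, through array 3 of CD8bm1, and the share of all probe sets without overlap was not computed. In activated cells Trib3 (-1.17 ± 0.15) and Slc1a4 (-1.35 ± 0.14) were lower in IL13+ clones, 2 of 37, where 1.65% of all probe sets were lower and 2.02% higher. Slc1a4 ran from 7.57 through 7.84 to 8.40 on the 8 activated IL13+ arrays and was 9.31, 9.37, 9.03 and 9.32 in activated CD8bm1.

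Dormant IL13-negative clones were also compared with CD8bm1, in a comparison added after the data were seen. Called lower were 14 of 37 genes and higher 0, where 3.35% of all probe sets were lower and 4.02% higher. Slc1a4 had the largest difference (-2.48 ± 0.14), from 5.48 through 5.81 to 6.48 on the 8 dormant IL13-negative arrays and 8.31, 8.34, 7.91 and 8.79 in dormant CD8bm1. Psat1 differed by -2.10 ± 0.19 and Slc7a5 by -1.97 ± 0.16. Trib3 (-1.68), Shmt2 (-1.51), Got1 (-1.49), Phgdh (-1.40), Chac1 (-1.39), Mthfd2 (-1.39), Slc7a1 (-1.10) and Sesn2 (-1.06) were also lower. So were the glycine and tryptophan synthetases Gars (-1.34) and Wars (-1.35) and the proline synthesis enzyme Aldh18a1 (-1.05). Gars ran from 10.94 through 11.06 to 11.29 on dormant IL13-negative arrays and was 12.39, 12.49, 12.24 and 12.53 in dormant CD8bm1, with no overlap. How many of all probe sets showed no overlap there was not computed. Of the 23 cell cycle genes 6 were lower there, and 0 differed in activation effect. The activation effect, also tested after the data were seen, was larger in IL13-negative clones than in CD8bm1 in 11 genes and smaller in 0, where 1.9% of all probe sets were larger and 2.27% smaller. Slc7a5 (1.81 ± 0.23), Psat1 (1.60 ± 0.27), Shmt2 (1.55 ± 0.24), Mthfd2 (1.45 ± 0.17) and Shmt1 (1.40 ± 0.30) led, with Asns (1.39), Phgdh (1.29), Got1 (1.17), Tars (1.10), Slc1a4 (1.09) and Slc7a1 (1.05). These comparisons share the CD8bm1 arrays. With clone means as the unit limma called 0 genes in each of them, with 2 genes at an unadjusted p under 0.05 in dormant and 3 in activated IL13+ against CD8bm1, 10 in dormant IL13-negative against CD8bm1 and 10 in the difference of effects.

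The 5 clones lay closer together after activation than at rest. The range of the 5 clone means was narrower in activated cells in 30 of 37 genes (81.1%), against 63.1% of all named probe sets. Its median was 0.66 in activated and 1.15 in dormant cells, against 0.31 and 0.38 over all probe sets. Among probe sets with a mean of at least 9 it was narrower in 23 of 25 listed genes (92%) and in 62.3% of 5632 probe sets. The range was 0.56 in activated and 2.59 in dormant cells for Slc7a5, 0.78 and 2.42 for Mthfd2, 0.60 and 2.28 for Psat1, 0.66 and 2.29 for Chac1 and 0.45 and 1.65 for Asns. Slc1a4 kept the widest spread of the 37 in activated cells (2.12, against 2.96 at rest), with 6.95 to 7.31 in activated 8uvmo-3 and 9.03 to 9.37 in activated CD8bm1. The range was not narrower for Ddit3, Psph, Aldh1l2, Slc1a5, Slc38a1, Slc43a1 and Slc6a9. These ranges are a description with no test.

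**Figure D4:**
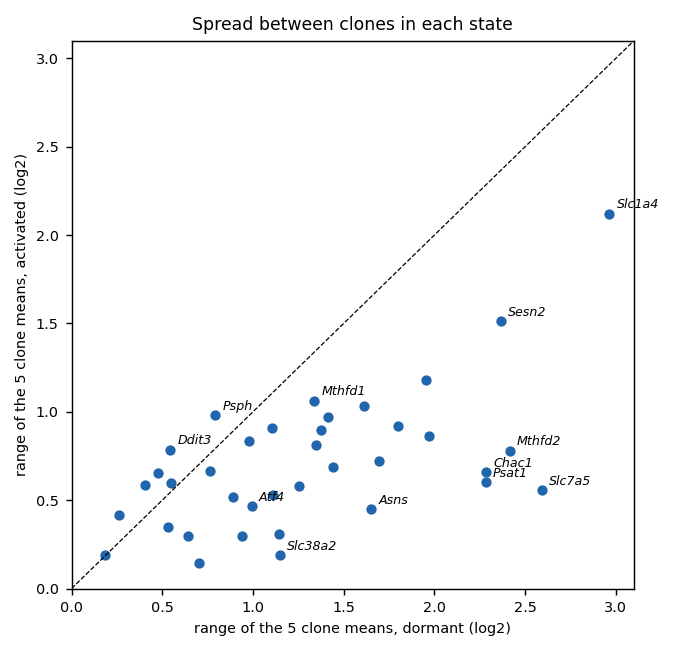
Range of the 5 clone means (highest minus lowest, log2) in activated cells (vertical axis) and in dormant cells (horizontal axis), 1 point per gene; the dashed line marks equal ranges. Of the 37 genes, 30 lie below the line, with Slc7a5 at 0.56 in activated and 2.59 in dormant cells.

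Other genes of the same pathways, from lists chosen by function, are given by their counts in the 5-clone mean. There 4.56% of all named probe sets were called higher and 1.64% lower. Of 21 other folate, purine and methionine genes 5 rose and 0 fell. Gcsh (1.63 ± 0.082) and Gldc (1.23 ± 0.036) of the glycine cleavage system, and Fpgs (1.20 ± 0.052), which traps folate in cells, had the largest differences. Of 13 other amino acid enzymes 1 rose, Bcat1, the cytosolic branched-chain aminotransferase (2.57 ± 0.055, and 4.75 ± 0.12 in 8uvmo-3 alone). Of 17 other amino acid transporters 1 rose, the taurine carrier Slc6a6 (1.01 ± 0.050). These single calls, 1 of 13 and 1 of 17, are not far above the share of all probe sets. No gene was called among 10 other cytosolic synthetases (median difference 0.41) or 16 mitochondrial synthetases (0.32). Of 15 eIF2 kinases and stress regulators, Atf3 rose (1.91 ± 0.070) and Ddit4 (-1.39) and Sesn1 (-1.18) fell, with a median of 0.08 over the list. Relative to the array medians Bcat1 stood at 2.17, Atf3 at 1.51 (without one direction in all clones) and Gcsh at 1.22, and the other genes that rose at 0.61 to 0.82. Between dormant IL13+ and IL13-negative clones Bcat1 (1.90), Nupr1 (1.32), a stress-induced chromatin protein, and Gpt2 (1.14), the mitochondrial alanine aminotransferase, were higher, and Stc2 (-1.37) and Eif4ebp1 (-1.07) lower. No gene of the transporter, synthetase or folate lists was called there, where 1.02% of all probe sets were called higher and 2.33% lower.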

How the data were processed

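The deposited table holds log2 probe set values of 38 Affymetrix arrays (35556 probe sets). Per the submitters' processing notes, Partek and RMA were used, with settings and versions not given in the sources used here. Per the labels, 100 ng of total RNA was amplified with the WT Plus kit. The values were used as deposited. They span 1.81 to 14.76, and array number limits the precision.

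Of 23410 named probe sets, 21789 had 1 gene symbol and 1621 several, and 21698 matched RefSeq. Each gene was read from its single-gene probe set with the highest mean. limma 3.58.1 (R 4.3.3) fitted 1 mean per clone and state over all arrays, with a shared spread and eBayes with a trend, and Benjamini-Hochberg adjustment ran over the 23410 probe sets. Phenotypes were means of their clones. By the correlation of deviations, same-numbered arrays went weakly together in 8uvmo-2 (r at least 0.113 in 4 of 4 pairs). Every other clone held a negative pair, though single pairs reached 0.268 in sAg3 and 0.136 in CD8bm1. These values do not establish a pairing, and the replicate block was run as an alternative. The fit was tested on simulated data. The genes and lists were chosen with earlier results of these data known. After the data were seen, 3 comparisons and the grouping of dormant sAg3 with CD8bm1 were added. All listed genes could be named, with every array for 6 preset genes and the largest 3 called per direction, and at most 3 genes per other list and direction. Alternatives varied scaling, filters, weights, arrays, clones and the unit of replication.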

Additional observations from a re-analysis of the deposited data

Results flagged for a closer look

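Of 104 groups of 4 arrays tested over 13 genes, 5 held an array whose gap to its nearest neighbour was above Dixon's limit, and chance flags about 1 in 20 groups. Activated sAg1 array 4 stood high in Chac1 (9.09, against 8.18, 8.33 and 8.19) and in Slc1a4 (8.40, against 7.57, 7.58 and 7.60). Dormant 8uvmo-2 array 3 stood high in Asns (10.60, against 10.28, 10.25 and 10.27). Activated 8uvmo-3 array 1 stood low in Mthfd1 (10.71, against 10.88, 10.89 and 10.87), and activated sAg3 array 3 in Mthfd1l (9.46, against 9.72, 9.73 and 9.70).

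Tests of the difference between activation effects in limma passed in 3 comparisons. Between IL13+ and IL13-negative clones the differences of effects were -1.84 for Slc1a4, -1.84 for Slc7a5, -1.29 for Asns, -1.25 for Chac1, -1.14 for Mthfd2 and -1.03 for Slc3a2. Between sAg1 and sAg3 they were 1.63 for Mthfd1l, 1.45 for Slc1a4, 1.33 for Slc7a5, 1.28 for Chac1, 1.27 for Psat1, 1.22 for Shmt2, 1.14 for Slc7a1, 1.03 for Asns and 1.01 for Shmt1. Between IL13-negative clones and CD8bm1 they were 1.81 for Slc7a5, 1.60 for Psat1, 1.55 for Shmt2, 1.45 for Mthfd2, 1.40 for Shmt1, 1.39 for Asns, 1.29 for Phgdh, 1.17 for Got1, 1.10 for Tars, 1.09 for Slc1a4 and 1.05 for Slc7a1.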

How the results depend on the processing

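Counts are of the 37 genes called by limma. Without a minimum on the log2 difference, but with the condition on the clones kept, they were 18 for mean activation, 34 in 8uvmo-2, 34 in 8uvmo-3, 28 in sAg1, 23 in sAg3 and 21 in CD8bm1. Between IL13+ and IL13-negative clones they were then 20 when dormant, 11 when activated and 25 for the effect. Against CD8bm1 they were 17 for dormant and 19 for activated IL13+, 28 for dormant IL13-negative clones and 28 for their effect. Between sAg1 and sAg3 they were 25 when dormant, 11 when activated and 24 for the effect. Tested against a difference of 1 itself (treat), the counts were 0 for mean activation, 3 in sAg1, 0 in sAg3, 12 in 8uvmo-2, 2 for the effect between IL13+ and IL13-negative clones, 3 between dormant sAg1 and sAg3, 9 between dormant IL13-negative clones and CD8bm1, and 0 for IL13+ against CD8bm1 in both states, for activated sAg1 against sAg3 and for the other 2 differences of effects. With arrays centred on their medians, which follow the dim probe sets, they were 0 for mean activation, 3 in sAg3 (all lower) and 9 in 8uvmo-2. With clone means as replicates mean activation kept a count of 6, and the count was 0 for the effect and the dormant difference between IL13+ and IL13-negative clones and for the 4 comparisons with CD8bm1, where fewer units enter. Without arrays 1 and 3 of dormant 8uvmo-2 the effect between IL13+ and IL13-negative clones gave 11, and without clone sAg3 mean activation gave 13. The cause of the other shifts was not tested.

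Leaving out 1 array at a time gave 5 to 6 for mean activation, 18 to 20 in 8uvmo-2, 16 to 16 in 8uvmo-3, 9 to 11 in sAg1, 0 to 1 in sAg3 (0 without dormant array 3) and 0 to 1 in CD8bm1 (1 without dormant array 4). Between IL13+ and IL13-negative clones it gave 6 to 6 when dormant, 0 to 0 when activated and 5 to 7 for the effect. Against CD8bm1 it gave 2 to 4 for dormant and 2 to 2 for activated IL13+, 13 to 16 for dormant IL13-negative clones and 9 to 12 for their effect. Between sAg1 and sAg3 it gave 8 to 9 when dormant, 1 to 1 when activated and 7 to 9 for the effect. Same-numbered arrays deviated weakly together in 8uvmo-2 (4 of 4 pairs above 0.1, r from 0.113 to 0.237) but not throughout the other clones (18 pairs in all, r from -0.236 to 0.268, 7 above 0.1). With the replicate block the 8uvmo-2 count was 19, with the same genes. The effect between IL13+ and IL13-negative clones then gave 7 genes and that between sAg1 and sAg3 gave 8, and no other count moved. Of 2886 gene values under alternatives, 2688 kept direction and call, 198 kept only the direction and 0 reversed.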
